A study of Mus musculus with 6 samples.

Results

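The β-cell disallowed genes are genes that most tissues express and that mature β-cells keep low. The 10 members described here, *Ldha*, *Slc16a1*, *Hk1*, *Mgst1*, *Oat*, *Acot7*, *Pdgfra*, *Smad3*, *Rest* and *Igfbp4*, were chosen by symbol among the 19342 genes of the count table. Every member was found once. They were compared between pancreatic islets of wild-type mice (FXR+/+) and of mice lacking the bile acid receptor FXR, encoded by *Nr1h4* (FXR-/-). All mice were 3 months old with no treatment given in the labels. Each genotype had 3 RNA-seq libraries, labelled female 1, male 1 and male 2. The knockout mice were of the C57Bl/6 strain, and the labels do not restrict the cell types in which FXR was targeted. Whether a library held the islets of 1 mouse or of several is not stated.

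In β-cells, pyruvate made by glycolysis is sent to the mitochondria, so that ATP production follows blood glucose and sets insulin release. Lactate dehydrogenase A and the monocarboxylate transporter MCT1, encoded by *Ldha* and *Slc16a1*, would divert pyruvate or let it in from the blood, and a hexokinase with high affinity for glucose, such as that of *Hk1*, would run glycolysis at low glucose. The remaining members encode enzymes, growth signalling proteins and a repressor of neuronal genes that are found in acinar, stromal or vascular cells, some of which an islet preparation also holds.

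*Nr1h4* itself was counted at 14.2, 13.6 and 12.2 CPM (counts scaled to library size, with TMM factors) in FXR+/+ female 1, male 1 and male 2, and at 5.67, 7.63 and 5.81 CPM in the corresponding FXR-/- libraries. The genotypes did not overlap, and the log2 fold change of FXR-/- over FXR+/+ was -1.07 (SE 0.160, edgeR quasi-likelihood test, adjusted p = 0.217). Counts of *Nr1h4* thus remained in FXR-/- islets, and whether any fell in the targeted part of the gene is not given here. The libraries held 20629306 to 30139235 counts assigned to genes, of which *Ins1* and *Ins2* took 17.5% to 23.9% and the 10 members together took 0.00526% to 0.00971%. At this depth *Pdgfra* had 4 to 56 counts in a library and *Slc16a1* 17 to 41, whereas *Ldha* had 297 to 539. In RNA of whole islets, fewer cells of a type and less RNA per cell cannot be told apart. The labels give the sex and a number for each library, but not whether each library came from mice of its own isolation. The p-values thus measure the spread between these libraries, which may be technical in part.

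No member passed edgeR's quasi-likelihood test between genotypes. All 10 members entered the fit with sex as a covariate, and 0 of the 10 had an adjusted p under 0.05, where the share of all genes tested was 0% (0 of 14619). The lowest adjusted p among members was 0.430, and 0.129 among all genes. An unadjusted p under 0.05 was reached by 2 members, *Mgst1* and *Igfbp4*, both with higher values in FXR-/- islets, where 10.3% of all genes had such a p in either direction and 6.18% with a higher value. The log2 fold change was above 0 for 9 of 10 members, all but *Rest*, and it was above 0 for 51.6% of all genes. Its median was 0.39 over the members and 0.0084 over all genes tested. The members' median was 0.76 without FXR+/+ male 1, 0.62 without FXR-/- male 2 and 0.25 without FXR+/+ male 2. DESeq2 called none of the 8 members to which it gave an adjusted p (all but *Slc16a1* and *Pdgfra*), while it called 177 of 12918 genes (1.37%), and at an unadjusted p under 0.05 it had 3 members and 9.1% of all genes.

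Read by library, 7 of 10 members were higher in the FXR-/- library of each of the 3 same-numbered pairs, a pattern of 20.4% of all genes. *Mgst1* was the only member whose FXR-/- libraries all lay above all FXR+/+ libraries, as did 8.02% of all genes. The lowest value of 8 members came from FXR+/+ male 2 and that of the other two, *Slc16a1* and *Oat*, from FXR+/+ female 1. The highest value came from FXR-/- male 1 for 6 members and from FXR-/- female 1 for 4. The summed level of the members was 62.9, 89.4 and 50 CPM in FXR+/+ female 1, male 1 and male 2 and 90.3, 108 and 77.2 CPM in the FXR-/- libraries (67.4 ± 20.1 against 91.7 ± 15.2 CPM, SD, n = 3 each, as for each ± that follows). FXR+/+ male 1 was thus within the range of the FXR-/- libraries.

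**Figure D1:**
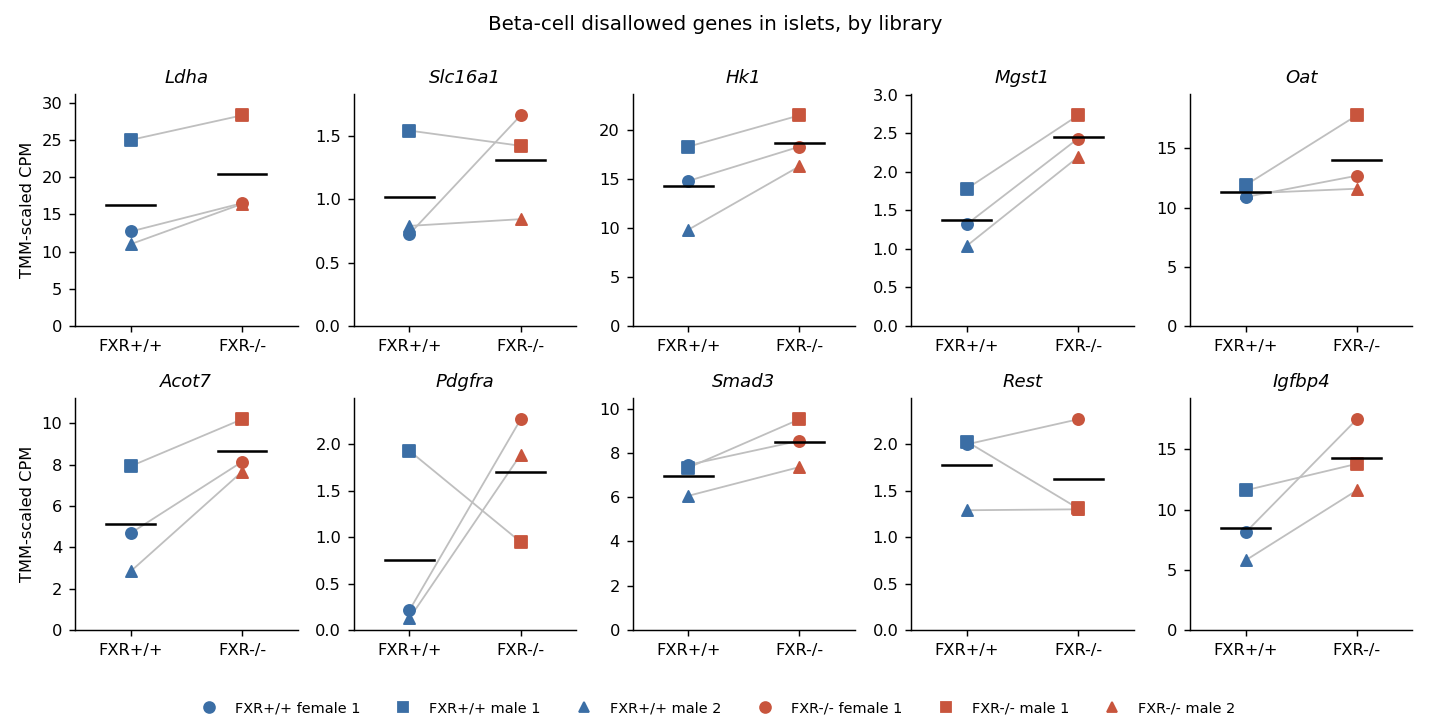
TMM-scaled CPM (y axes, from 0) of each disallowed gene in FXR+/+ (blue) and FXR-/- (red) islets, with 1 point per library, a black bar at the mean of 3 libraries and grey lines joining same-numbered libraries. The red points lie above all blue points for *Mgst1* alone, and FXR+/+ male 1 (blue squares) reaches the FXR-/- range for most other members.

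The promoters of the members the results turn on are shown to give the sequence context of each gene. RefSeq promoters (GRCm38.p6, 250 bases before to 50 after the start site) were matched by symbol for 9 of 10 members, with 12 promoters in all. Both strands were searched for the half-site of nuclear receptors, spelled AGGTCA, and for the inverted repeat of it with 1 base in between, to which FXR binds. The search also covered the E-box of basic helix-loop-helix factors, spelled CACGTG, the shorter motif that it contains on both strands, spelled ACGTG and known as a core of hypoxia response elements, and the GC box of SP1, spelled GGGCGG. *Ldha* and *Slc16a1* are printed as the pair that defines pyruvate handling, and *Mgst1* and *Igfbp4* as the members with the lowest p. Capitals mark the E-box, its shorter core or the GC box on either strand.
Ldha (chr7:46845554-46845853, plus strand): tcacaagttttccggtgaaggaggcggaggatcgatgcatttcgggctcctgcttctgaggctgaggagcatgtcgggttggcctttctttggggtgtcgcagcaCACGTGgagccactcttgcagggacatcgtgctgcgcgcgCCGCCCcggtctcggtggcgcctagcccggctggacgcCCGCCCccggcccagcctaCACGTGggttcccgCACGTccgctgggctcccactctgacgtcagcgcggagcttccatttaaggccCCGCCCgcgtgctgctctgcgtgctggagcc
Slc16a1 (chr3:104638414-104638713, plus strand): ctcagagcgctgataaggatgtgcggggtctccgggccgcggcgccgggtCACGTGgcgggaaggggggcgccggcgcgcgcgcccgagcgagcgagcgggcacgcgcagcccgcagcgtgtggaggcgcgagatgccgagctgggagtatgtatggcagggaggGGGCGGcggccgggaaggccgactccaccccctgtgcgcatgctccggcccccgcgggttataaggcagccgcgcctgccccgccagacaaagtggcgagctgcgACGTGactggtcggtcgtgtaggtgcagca
Mgst1 (chr6:138140277-138140576, plus strand): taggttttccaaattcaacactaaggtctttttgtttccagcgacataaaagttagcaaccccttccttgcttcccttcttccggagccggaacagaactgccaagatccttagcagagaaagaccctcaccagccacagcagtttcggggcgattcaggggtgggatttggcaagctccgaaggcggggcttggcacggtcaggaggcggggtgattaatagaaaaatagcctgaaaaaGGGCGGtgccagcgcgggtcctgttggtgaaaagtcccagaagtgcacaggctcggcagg
Igfbp4 (chr11:99040994-99041293, plus strand): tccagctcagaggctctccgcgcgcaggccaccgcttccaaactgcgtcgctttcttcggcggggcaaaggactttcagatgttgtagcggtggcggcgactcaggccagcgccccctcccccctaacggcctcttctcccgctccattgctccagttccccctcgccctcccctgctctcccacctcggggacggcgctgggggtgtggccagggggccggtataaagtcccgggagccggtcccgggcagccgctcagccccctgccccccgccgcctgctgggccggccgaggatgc

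Neither the half-site nor its inverted repeat was in any of the 12 promoters, while 16.3% and 0.00913% of the 32851 promoters of the table held them. The E-box began at positions -145 and -48 of this *Ldha* promoter and at -200 of the *Slc16a1* promoter, where the start site is position 1, and 2 of the 12 promoters of members and 7.15% of all promoters held it. The core outside an E-box was at -34 in *Ldha* and at 21 in *Slc16a1*, with 4 of the 12 promoters and 19.6% of all promoters holding the core. The GC box, held by 35.7% of all promoters, was in 6 of the 12 promoters of members, 3 times in the *Ldha* promoter and at -10 in the *Mgst1* promoter. The *Igfbp4* promoter held none of these motifs. These windows describe the start sites only and say nothing about binding.

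*Ldha* (chr7:46841475-46855627, plus strand, GRCm38) encodes the subunit of lactate dehydrogenase that turns pyruvate into lactate. It was at 12.7, 25.0 and 11 CPM in FXR+/+ female 1, male 1 and male 2 and at 16.5, 28.3 and 16.4 CPM in the FXR-/- libraries. The male 1 libraries of both genotypes were the highest, and FXR+/+ male 1 exceeded both of the other FXR-/- libraries. FXR-/- over FXR+/+ gave a log2 fold change of 0.34 (SE 0.312, 95% interval -0.39 to 1.07, adjusted p = 0.680). It was 0.06 without FXR+/+ male 2, 0.09 without FXR-/- male 1 and 0.74 without FXR+/+ male 1. Processed pseudogenes close in sequence to *Ldha* are annotated in the mouse genome, and how reads shared with them were counted is not known.

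*Slc16a1* (chr3:104638668-104658462, plus strand) encodes MCT1, which carries pyruvate and lactate across the cell membrane. Its 6 values were 0.725, 1.54 and 0.789 CPM in FXR+/+ islets and 1.66, 1.42 and 0.842 CPM in FXR-/- islets, in the order of female 1, male 1 and male 2. The female 1 pair differed 2.29-fold, whereas the ratio was 0.924 in male 1 and 1.07 in male 2. The fit gave a log2 fold change of 0.39 (SE 0.424, interval -0.60 to 1.38, adjusted p = 0.729), and the genotypes overlapped. It was -0.02 in males alone or without either female library, so that its direction rested on the female pair, and 0.23 without FXR+/+ male 2, 0.69 without FXR-/- male 2 and 0.79 without FXR+/+ male 1.

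The other genes of pyruvate and lactate handling gave 0 of 18 with an unadjusted p under 0.05, 12 with a log2 fold change above 0 and a median of 0.11. Here and for each list that follows, 10.3% of all genes had such a p in either direction, 6.18% with a higher value. A log2 fold change above 0 was found for 51.6% of all genes. In 4 of the 18 genes all FXR-/- libraries lay above all FXR+/+ libraries, where 8.02% of all genes did so. *Ldhb*, whose subunit favours the oxidation of lactate, was at 12.5 ± 2.60 CPM for FXR+/+ and 12 ± 0.0990 CPM for FXR-/- (log2 -0.05, adjusted p = 0.922). *Bsg*, the chaperone that brings MCT1 to the membrane, was at 453 ± 6.82 and 516 ± 33.4 CPM. Its genotypes did not overlap (log2 0.19, SE 0.0969, adjusted p = 0.516). The other monocarboxylate transporters *Slc16a3* and *Slc16a7* had log2 fold changes of 0.16 and -0.02. *Pkm*, pyruvate kinase and the most abundant gene of the list, was at 691 ± 30.4 and 819 ± 57.8 CPM (log2 0.24, adjusted p = 0.491), and *Pcx*, pyruvate carboxylase, had the lowest p of the list (log2 0.23, adjusted p = 0.480).

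*Hk1* (chr10:62268855-62379908, minus strand) encodes hexokinase 1, which phosphorylates glucose with high affinity. FXR+/+ islets had 14.8, 18.3 and 9.82 CPM and FXR-/- islets 18.3, 21.5 and 16.3 CPM, higher in FXR-/- in all 3 pairs but with overlapping genotypes. Its log2 fold change was 0.39 (SE 0.228, interval -0.14 to 0.92, adjusted p = 0.544). It was 0.16 without FXR+/+ male 2, 0.25 without FXR-/- male 1, 0.66 without FXR+/+ male 1 and 0.76 with exon counts summed per gene, which held 20.5% of its gene counts. *Hk1* shares chromosome 10 with *Nr1h4* at a distance of 27.1 Mb, and 1 of its exon blocks overlaps an exon of the antisense gene *Hk1os*, whose reads cannot be told apart where counting ignored strand. Among 9 other genes of hexose phosphorylation and transport 1 had an unadjusted p under 0.05, *G6pc3*, a glucose-6-phosphatase subunit of most tissues (log2 0.23, adjusted p = 0.478). *G6pc2*, its β-cell counterpart, was at 1790 ± 115 and 1360 ± 303 CPM (log2 -0.40, adjusted p = 0.491).

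*Oat* (chr7:132557478-132576398, minus strand) encodes ornithine aminotransferase, a mitochondrial enzyme of ornithine and proline metabolism. Its FXR+/+ values were the closest together of the members, at 10.9, 11.9 and 11.2 CPM, and its FXR-/- values were 12.7, 17.8 and 11.6 CPM. FXR-/- male 2 lay within the FXR+/+ range, and the log2 fold change was 0.30 (SE 0.168, interval -0.09 to 0.70, adjusted p = 0.533). It was 0.10 without FXR-/- male 1, the highest library, and 0.45 without FXR-/- male 2.

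*Mgst1* (chr6:138140316-138156755, plus strand) encodes microsomal glutathione S-transferase 1, which detoxifies lipid peroxides. Its counts were 31, 36 and 33 for FXR+/+ and 60, 52 and 52 for FXR-/-, or 1.32, 1.78 and 1.04 CPM against 2.43, 2.73 and 2.19 CPM. All FXR-/- libraries lay above all FXR+/+ libraries, with ratios of 1.84, 1.53 and 2.10 in the female 1, male 1 and male 2 pairs. The log2 fold change was 0.84 (SE 0.277, interval 0.20 to 1.49), with an unadjusted p of 0.0172 and an adjusted p of 0.430. With exon counts summed per gene, which held 42% of its gene counts, it was 0.54 and the genotypes overlapped. The exact two-sided permutation test of 3 against 3 gave p = 0.1, the smallest value it can give. *Mgst3*, a related transferase, was at 7.13 ± 1.03 and 7.37 ± 1.52 CPM (log2 0.05, adjusted p = 0.934). *Mgst2* had 0 to 5 counts in a library and was not tested.

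Of 15 other tested genes of ornithine, proline and glutathione metabolism, 2 had an unadjusted p under 0.05 with a higher value and 1 with a lower value, against 10.3% of all genes in either direction, and the median log2 fold change was -0.03. *Pycr1*, the last enzyme of proline synthesis, was at 21.7 ± 4.11 and 29.5 ± 6.37 CPM (log2 0.42, adjusted p = 0.450). *Glul*, glutamine synthetase, was at 558 ± 28.7 and 458 ± 38.9 CPM (log2 -0.29, adjusted p = 0.458).

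*Acot7* (chr4:152178134-152271855, plus strand) encodes a cytosolic thioesterase that splits long-chain acyl-CoA into fatty acid and CoA. The FXR+/+ values were 4.69, 7.93 and 2.84 CPM, and the FXR-/- values were 8.14, 10.2 and 7.66 CPM. FXR+/+ male 1 lay just above FXR-/- male 2, and the other two FXR+/+ libraries lay below all FXR-/- libraries. With overlap, the log2 fold change was 0.76 (SE 0.343, interval -0.04 to 1.56, adjusted p = 0.486). It was 0.42 without FXR+/+ male 2 and 1.26 without FXR+/+ male 1. Among 9 other acyl-CoA thioesterases tested, 0 had an unadjusted p under 0.05 and the median log2 fold change was 0.05. The most abundant of them, *Ppt1*, a lysosomal enzyme, was at 67.3 ± 0.443 and 61.9 ± 7.83 CPM, and *Acot13*, a mitochondrial one, had the lowest p (log2 0.19, adjusted p = 0.548).

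*Pdgfra* (chr5:75152292-75198215, plus strand) encodes the α receptor for platelet-derived growth factor and is a marker of fibroblasts and pancreatic stellate cells. Its counts were 5, 39 and 4 in the FXR+/+ libraries and 56, 18 and 45 in the FXR-/- libraries, or 0.213, 1.93 and 0.126 CPM against 2.27, 0.947 and 1.89 CPM. It was the most variable member, with a highest value 18.0 times the lowest, and FXR+/+ male 1 exceeded FXR-/- male 1. Of its 27 exon blocks, 1 overlaps an exon of the antisense gene *Gm42802*. The same number overlaps *Gm42803* on the opposite strand and the microRNA gene *Mir7025* on the same strand. The log2 fold change of 1.35 was the least precise of the members (SE 0.862, interval -0.66 to 3.37, adjusted p = 0.563). It was 3.42 without FXR+/+ male 1, 0.75 without FXR+/+ male 2, 0.62 without FXR+/+ female 1 and 0.61 without FXR-/- female 1 or in males alone. *Pdgfrb*, the β receptor of pericytes, was at 17 ± 3.04 and 22 ± 5.66 CPM (log2 0.36, SE 0.179, adjusted p = 0.497). *Pdgfc*, a ligand of the α receptor, was the only one of 5 other genes of this pathway with an unadjusted p under 0.05 (0.571 ± 0.264 against 1.11 ± 0.0990 CPM, log2 1.01, adjusted p = 0.478).

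*Smad3* (chr9:63646767-63757994, minus strand) encodes a transcription factor activated by the receptors for TGF-β. Its level was 7.46, 7.33 and 6.06 CPM for FXR+/+ and 8.55, 9.52 and 7.36 CPM for FXR-/-. FXR-/- male 2 fell within the FXR+/+ range, and the log2 fold change was 0.29 (SE 0.160, interval -0.09 to 0.66, adjusted p = 0.535). Without FXR-/- male 1 it was 0.16. Its partners *Smad2* and *Smad4* had log2 fold changes of -0.11 and 0.05 (adjusted p = 0.658 and 0.846). Of 15 other genes of TGF-β signalling, 3 had an unadjusted p under 0.05 with a higher value, where 6.18% of all genes did, and 1 with a lower value, *Tgfbr3*, a co-receptor (27.0 ± 3.26 against 21.2 ± 3.10 CPM, log2 -0.35, adjusted p = 0.369), and the median was -0.02. *Smad5*, the most abundant, was at 71.0 ± 10 and 61.0 ± 5.22 CPM.

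*Igfbp4* (chr11:99041244-99054392, plus strand) encodes a secreted protein that binds insulin-like growth factors. Its counts were 190, 235 and 183 for FXR+/+ and 431, 263 and 276 for FXR-/-, or 8.10, 11.6 and 5.78 CPM against 17.5, 13.8 and 11.6 CPM. The lowest FXR-/- library and the highest FXR+/+ library were level at 11.6 CPM, and the female 1 pair differed most, 2.16-fold. The log2 fold change was 0.74 (SE 0.262, interval 0.13 to 1.35), with an unadjusted p of 0.0241 and an adjusted p of 0.451. It was 1.12 without FXR+/+ male 1. Among 11 other genes of the IGF system that were tested, 9 had a log2 fold change above 0 (51.6% of all genes) and 2 had an unadjusted p under 0.05 (10.3% of all genes), *Igfbp5* and *Igfbp7*. *Igfbp5* did not overlap between genotypes (25.3 ± 3.95 against 35.4 ± 6.27 CPM, log2 0.48, adjusted p = 0.436). *Igfbp7*, the most abundant and a product of endothelial cells, was at 201 ± 28.9 and 257 ± 45.6 CPM (log2 0.34, adjusted p = 0.466). *Igfbp3* was at 101 ± 9.67 and 110 ± 58.0 CPM, and the receptor *Igf1r* at 122 ± 10.4 and 123 ± 8.90 CPM.

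*Rest* (chr5:77265491-77286432, plus strand) encodes the repressor that silences neuronal genes outside neurons and endocrine cells. Its values were 2.00, 2.03 and 1.29 CPM for FXR+/+ and 2.27, 1.31 and 1.3 CPM for FXR-/-, with a log2 fold change of -0.13 (SE 0.278, interval -0.78 to 0.52, adjusted p = 0.862). Leaving out FXR+/+ male 1 gave 0.09, and leaving out either female library -0.32. It was the only member with a log2 fold change under 0, and it was higher in the FXR-/- library of 2 of the 3 pairs. Of 8 corepressors that REST recruits, 0 had an unadjusted p under 0.05 and the median was -0.10. *Rcor1*, its main corepressor, was at 21.0 ± 0.757 and 19.5 ± 0.208 CPM with genotypes that did not overlap (log2 -0.11, adjusted p = 0.640). Of the others, *Ehmt2*, a histone methyltransferase, was the most abundant (188 ± 3.04 and 189 ± 6.32 CPM), and *Hdac2*, a histone deacetylase, had the lowest p (log2 -0.18, adjusted p = 0.487). Of 13 neuronal genes with a REST site that islets share, 4 had an unadjusted p under 0.05 with a higher value (6.18% of all genes) and 1 with a lower value (10.3% of all genes in either direction), with a median of 0.19. *Vgf*, a secretory granule peptide, had the lowest p (22.7 ± 3.98 against 42 ± 9.37 CPM, log2 0.87, SE 0.170, adjusted p = 0.244), and *Scg2*, the most abundant, was at 5280 ± 512 and 5430 ± 339 CPM.

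How low the members were was described per kilobase of exon (GENCODE vM21), to allow for differences in length between genes. The length is the union of exons over all annotated transcripts, which numbered 20 for *Hk1* and 1 for *Slc16a1*. Which of them islets use was not tested, so comparisons between genes are approximate. In FXR+/+ islets the order from high to low was *Ldha* at 4.91 ± 2.31 CPM per kb, *Oat* at 4.80 ± 0.220, *Acot7* at 2.43 ± 1.21, *Igfbp4* at 1.93 ± 0.669, *Hk1* at 1.68 ± 0.499, *Smad3* at 1.25 ± 0.140, *Mgst1* at 0.687 ± 0.186, *Rest* at 0.246 ± 0.0579, *Slc16a1* at 0.230 ± 0.102 and *Pdgfra* at 0.0756 ± 0.102. The ranges of neighbours in this order over the 3 FXR+/+ libraries overlapped, with exceptions. The whole range of *Oat* lay above that of *Acot7*, that of *Smad3* above *Mgst1* and that of *Mgst1* above *Rest*. Among the 14011 tested genes with a length the members stood between the 0.742 and the 54.6 percentile, with a median of 27.0, and *Pdgfra*, *Slc16a1* and *Rest* were the lowest.

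Several counterparts were higher per kb than the member they are related to. *Ldhb* was 1.3 to 2.08 times *Ldha* per kb in FXR+/+ and 0.884 to 1.55 times in FXR-/- islets, overlapping ranges in which the level of *Ldha* passed that of *Ldhb* in FXR-/- male 1. In CPM, before division by length, *Ldha* was above *Ldhb* in every library. The FXR+/+ values were 12.7, 25 and 11 CPM against 11, 15.5 and 10.9 CPM. The order thus depended on the exon lengths used, 3.31 kb for *Ldha* and 1.57 kb for *Ldhb*. *Mgst3* was 8.51 to 11.1 times *Mgst1* per kb in FXR+/+ and 4.58 to 7.60 times in FXR-/- islets, without overlap. *Pdgfrb* was 19.4 to 215 times *Pdgfra* in FXR+/+ and 14.4 to 55.0 times in FXR-/- islets. *Slc16a3* and *Slc16a7*, at 0.136 ± 0.0348 and 0.171 ± 0.0200 CPM per kb in FXR+/+ islets, were about as low as *Slc16a1*, and *Hk2* and *Hk3*, at 0.247 ± 0.124 and 0.175 ± 0.0616, lay below *Hk1* in every library.

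**Figure D2:**
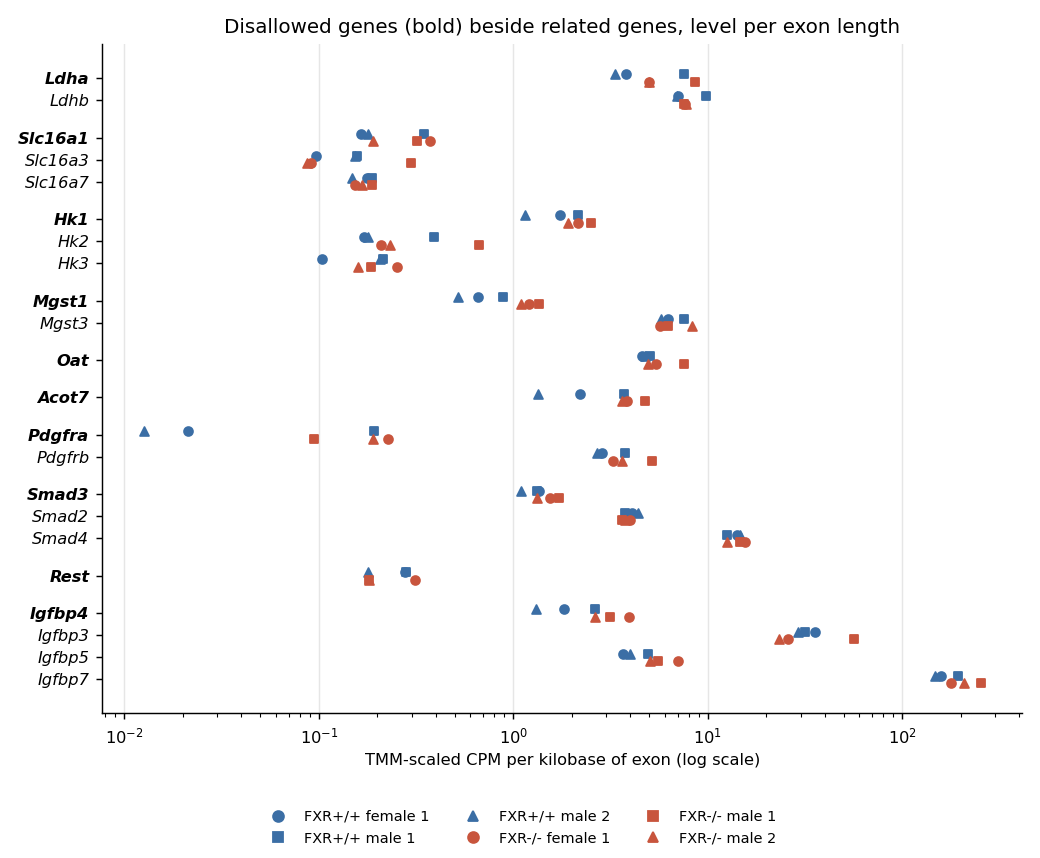
TMM-scaled CPM per kilobase of exon (x axis, log scale) of the disallowed genes (bold) and of related genes, with 1 point per library, FXR+/+ in blue and FXR-/- in red. *Mgst3* lies 4.58 to 11.1 times above *Mgst1* in each library, while the 3 monocarboxylate transporters all lie at or under 0.375 CPM per kb.

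The members were then read against the other cells of the preparation. The summed level of 28 acinar genes was 55600, 150000 and 49900 CPM in FXR+/+ female 1, male 1 and male 2 and 71000, 171000 and 101000 CPM in the FXR-/- libraries, higher in FXR-/- 1.28-fold, 1.14-fold and 2.02-fold by pair. That of 14 tested fibroblast and stellate genes, all with a log2 fold change above 0 (median 0.74, 1 with an unadjusted p under 0.05, *Serpinf1*), was 61.1, 180 and 43.4 CPM against 144, 166 and 155 CPM, with ratios of 2.36, 0.924 and 3.57. Of 12 endothelial genes, 9 had an unadjusted p under 0.05 with a higher value and 6 did not overlap, where 6.18% and 8.02% of all genes did so, with a sum of 577 to 690 CPM for FXR+/+ and 726 to 1160 CPM for FXR-/-. Their median was 0.55, and *Emcn*, which marks capillary endothelium, had the lowest p (36.8 ± 4.37 against 55.7 ± 7.49 CPM, log2 0.59, adjusted p = 0.286). All 10 genes of pericytes and smooth muscle had a log2 fold change above 0 (median 0.26, sum 191 to 231 against 213 to 312 CPM). No gene of these lists passed the adjusted test, and none of their defining genes *Ctrb1*, *Col3a1*, *Rgs5* and *Plvap* was at 0 in a library. FXR+/+ male 2, the lowest library for 8 members, also held the least RNA of immediate early genes such as *Fos*, at 190 CPM against 1150 to 6660 CPM in the other libraries, and their part in the members' values was not tested.

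**Figure D3:**
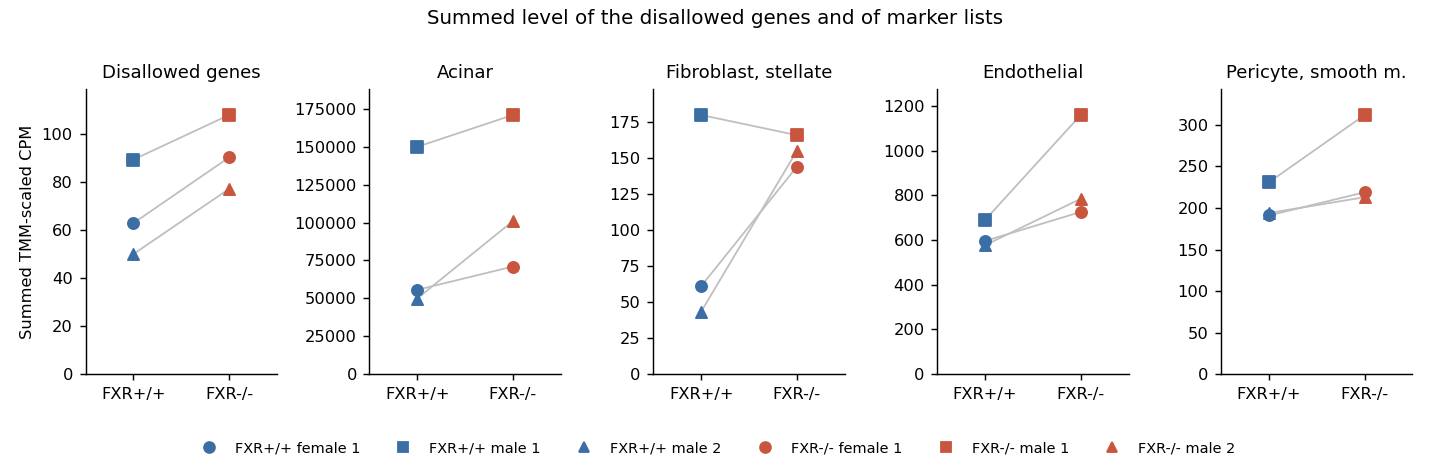
Summed TMM-scaled CPM (y axes, from 0) of the 10 disallowed genes and of the acinar, fibroblast and stellate, endothelial, and pericyte and smooth muscle genes, with 1 point per library and grey lines joining same-numbered libraries. FXR+/+ male 1 holds 180 CPM of fibroblast and stellate genes against 61.1 and 43.4 CPM in the other FXR+/+ libraries, and its disallowed genes sum to 89.4 CPM against 62.9 and 50 CPM.

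No relation between a member and the acinar genes over the 6 libraries had an adjusted p under 0.05, and that of *Ldha* had the highest r. Pearson's r between log2 levels of *Ldha* and the acinar sum was 0.974 (exact permutation p = 0.00278, adjusted p = 0.0556 over the 20 relations of 10 members with 2 scores) and Spearman's rho was 0.943 (exact permutation p = 0.0167, adjusted p = 0.292). The permutations exchanged all 6 libraries freely and did not keep same-numbered libraries together, although these deviated together and both male 1 libraries were the highest for *Ldha* and for acinar genes. Without the male 1 libraries of both genotypes, which lay farthest from the median, r was 0.877. Within pairs the ratios of *Ldha* were 1.3, 1.13 and 1.49, in the same order as those of the acinar genes. The other members had r from -0.136 for *Rest* to 0.826 for *Acot7* (exact permutation p = 0.0361, adjusted p = 0.0903; rho 0.829, exact permutation p = 0.0583). Without the same libraries the r of these 9 members ran from -0.156 for *Rest* to 0.864 for *Pdgfra*, which had 0.666 over all libraries. It was then 0.831 for both *Acot7* and *Mgst1*, 0.676 for *Hk1*, 0.430 for *Oat* and 0.246 for *Slc16a1*.

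For the fibroblast and stellate genes the libraries fell into 2 clusters, so that no pooled r is given. FXR+/+ female 1 and male 2 were at 61.1 and 43.4 CPM and the other 4 libraries at 144 to 180 CPM. The relation was not tested within either cluster, and r within the larger one is given at the end of this paragraph. The values of 8 of 10 members, all but *Smad3* and *Rest*, were lower in FXR+/+ female 1 and male 2 than in each of the other 4. This split was shown by 13.8% of all genes. *Pdgfra* had 0.213 and 0.126 CPM in those FXR+/+ libraries and 0.947 to 2.27 CPM in the others. *Igfbp4* had 8.10 and 5.78 CPM there and 11.6 to 17.5 CPM elsewhere, and *Acot7* had 4.69 and 2.84 CPM there and 7.66 to 10.2 CPM elsewhere. *Ldha* had 12.7 and 11 CPM there and 16.4 to 28.3 CPM elsewhere. The gap was narrow for *Oat*, with 11.2 CPM at most there and 11.6 CPM at least elsewhere, and for *Slc16a1*, with 0.789 and 0.842 CPM. *Smad3* had 7.46 CPM in FXR+/+ female 1 and 7.33 CPM in FXR+/+ male 1. Within the 4 libraries at 144 to 180 CPM, the members' r with this score ran from -0.696 for *Igfbp4* to 0.809 for *Ldha*. It was -0.526 for *Mgst1*, -0.362 for *Pdgfra* and 0.181 for *Acot7*.

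**Figure D4:**
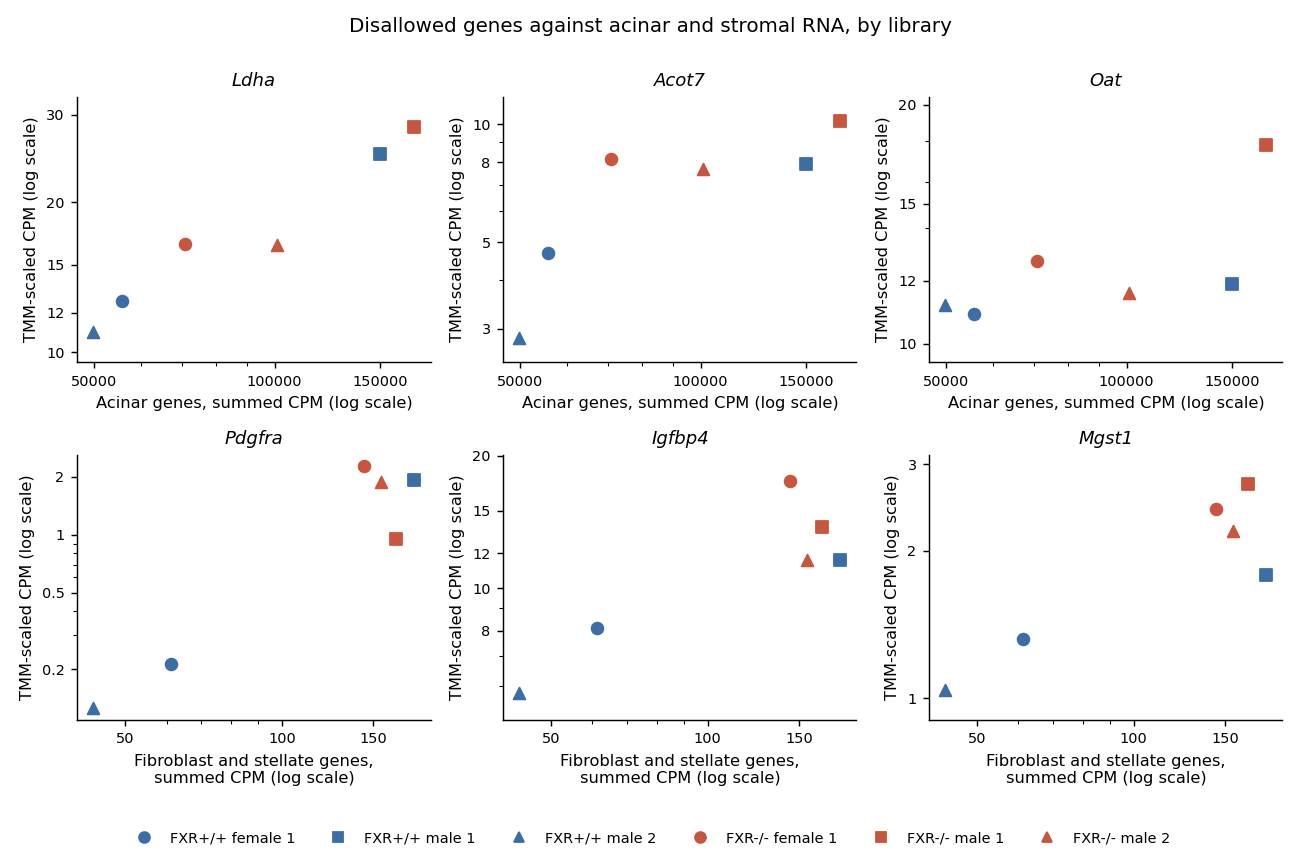
TMM-scaled CPM of *Ldha*, *Acot7* and *Oat* against the summed CPM of acinar genes (upper panels) and of *Pdgfra*, *Igfbp4* and *Mgst1* against that of fibroblast and stellate genes (lower panels), all axes on log scales, with 1 point per library. *Ldha* lies between 11 and 28.3 CPM, with both male 1 libraries highest on both axes, and in the lower panels FXR+/+ female 1 and male 2 stand apart at 61.1 and 43.4 CPM of stromal genes.

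The acinar and the fibroblast and stellate scores ranked the 6 libraries in nearly the same order (Spearman's rho 0.943, n = 6). This rho describes the order only, because the libraries form 2 clusters on the latter score. In the male 1 pair the ratios were 1.14 for the acinar and 0.924 for the fibroblast and stellate genes. A shift under one score can thus not be assigned to that score alone. Replacing sex with a term for the acinar score took the log2 fold change of *Ldha* from 0.34 to 0.02 (SE 0.126), and those of *Acot7*, *Hk1* and *Oat* to 0.55, 0.24 and 0.19. *Mgst1* stayed at 0.70 (SE 0.245), *Igfbp4* at 0.68 (SE 0.248) and *Pdgfra* at 1.20 (SE 0.747). The unadjusted p was under 0.05 for *Mgst1*, *Igfbp4* and *Acot7* in this fit, where 7.48% of all genes had such a p, with adjusted p-values of 0.603, 0.612 and 0.639, and the median of the members was 0.24. The fibroblast and stellate score is largely confounded with genotype. All FXR-/- libraries held 144 to 166 CPM of these genes, and among FXR+/+ libraries only male 1, at 180 CPM, was as high. A smaller genotype term beside this score can thus not be assigned to either. With a term for the fibroblast and stellate score instead, the median was 0.19, *Pdgfra* went to 0.35 (SE 0.515), *Acot7* to 0.20 (SE 0.221), *Igfbp4* to 0.38 (SE 0.241) and *Mgst1* to 0.50 (SE 0.283). *Ldha* and *Slc16a1* then had log2 fold changes of -0.20 and -0.06. No member had an unadjusted p under 0.05 in that fit, where 4.14% of all genes did, and its adjusted p was 0.997 for all 10. The medians of all genes in both fits were 0.005 and 0.004.

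**Figure D5:**
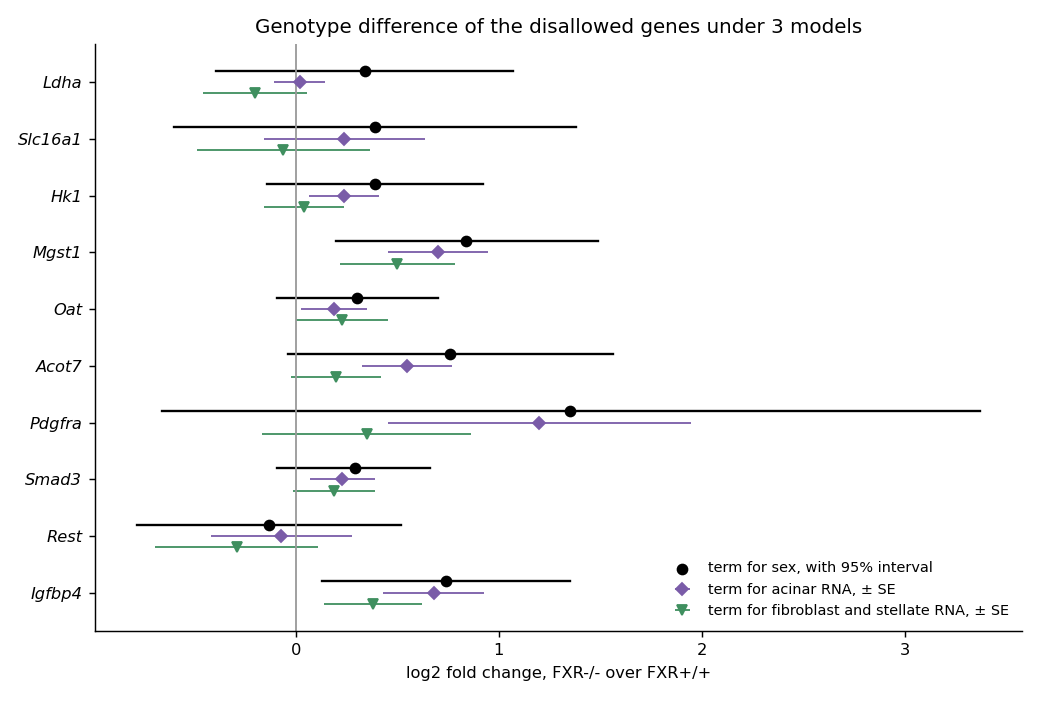
Log2 fold change of FXR-/- over FXR+/+ (x axis) for each disallowed gene from the model with sex (black, with the 95% interval) and from models with a term for acinar RNA (purple, ± SE) or for fibroblast and stellate RNA (green, ± SE), 6 libraries each. The interval of the model with sex lies above 0 for *Mgst1* and *Igfbp4*, and for all 10 genes the acinar term moves the value towards 0.

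A single library decided several of the counts. Without FXR+/+ male 1, 8 of 10 members (all but *Smad3* and *Rest*) had FXR-/- libraries above all remaining FXR+/+ libraries, where 17.7% of all genes did, and 6 had an unadjusted p under 0.05, where 14.7% of all genes did. The lowest adjusted p of a member was then 0.151. Without FXR-/- male 2, 6 members were apart, where 12.1% of all genes were, and 3 members (*Mgst1*, *Oat* and *Igfbp4*) had an unadjusted p under 0.05, where 7.24% of all genes did. Without the female library of either genotype, 0 members had an unadjusted p under 0.05, where 8.21% (FXR+/+) and 8.37% (FXR-/-) of all genes did. With 1 female left, the term for sex fits that library exactly, so the genotype term came from the males alone. These fits thus repeat that of males alone below. *Smad3* joined *Mgst1* as apart where the FXR+/+ female was left out, where 11.8% of all genes were apart. *Mgst1* alone was apart without FXR-/- female 1, FXR+/+ male 2 or FXR-/- male 1, where 17.3%, 10.9% and 11.2% of all genes were. Without male 2 of FXR+/+ or male 1 of FXR-/-, *Igfbp4* alone had an unadjusted p under 0.05, where 6.46% and 5.78% of all genes did. In males alone *Mgst1* and *Smad3* were apart, where 21.4% of all genes were, and no member had an unadjusted p under 0.05, where 8.28% of all genes did. Without a filter on low counts *Mgst1* and *Igfbp4* were apart, where 6.94% of all genes were, and with exon counts summed per gene *Hk1*, *Oat* and *Acot7* were, where 7.68% of all genes were. With same-numbered libraries as blocks, 5 members (*Ldha*, *Hk1*, *Mgst1*, *Acot7* and *Igfbp4*) had an unadjusted p under 0.05, where 16.1% of all genes did, and none an adjusted p under 0.05, where 0.157% of all genes did (23 of 14619). The lowest adjusted p of a member in that fit was 0.108, for *Igfbp4*.

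Whether the difference between genotypes depended on sex could not be tested, because 1 female library per genotype gives no spread between females. Effect sizes alone are given. The interaction terms farthest from 0 were those of *Pdgfra* and *Slc16a1*. *Pdgfra* had log2 ratios of 3.41 in the female pair and -1.03 and 3.91 in the male pairs, which lay on both sides of the female pair. Its interaction term was -2.76. *Slc16a1* had log2 ratios of 1.20, -0.11 and 0.09, and its interaction term was -1.21.

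The exon table, whose positions are those of GRCm38, held 18.9% (*Acot7*) to 94.2% (*Rest*) of the gene counts of a member. It gave 12 exons of the 10 members enough counts to be tested, most of them at the 3′ end of the gene, and none had an adjusted p under 0.05. The 3′-most tested exon of *Igfbp4* (chr11:99051445-99052643) had 111, 134 and 109 counts in FXR+/+ and 263, 135 and 158 in FXR-/- libraries (log2 0.71, SE 0.242, adjusted p = 0.614), and its other tested exon (chr11:99041260-99041845) had a log2 fold change of 1.02 (SE 0.352, adjusted p = 0.619). In *Smad3* the first exon (chr9:63757472-63757994) had 8, 10 and 20 counts in FXR+/+ and 28, 27 and 20 in FXR-/- libraries (log2 1.19, SE 0.360, adjusted p = 0.566), while the last exon (chr9:63646767-63650385), with the most counts, had a log2 fold change of 0.15 (SE 0.163). The difference between these exons was not tested. The tested exons of *Hk1* and *Mgst1* had log2 fold changes of 0.69 and 0.59, and that of *Rest* had -0.11, the only value under 0.

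A further 18 genes described as little expressed in β-cells were listed with earlier results of these data known, as were the members. Of them, 16 had a log2 fold change above 0, where 51.6% of all genes did. Of these 18, 4 had an unadjusted p under 0.05, all with a higher value (6.18% of all genes), 2 did not overlap between genotypes (8.02% of all genes), and 0 passed the adjusted test. Their median was 0.34 and their summed level was 106, 151 and 89.5 CPM in FXR+/+ female 1, male 1 and male 2 and 157, 176 and 133 CPM in the FXR-/- libraries, with FXR+/+ male 1 the highest of its genotype, as for the 10 members. *Nfib*, a transcription factor, had the lowest p (10.7 ± 1.08 against 16.4 ± 3.08 CPM, log2 0.62, SE 0.163, adjusted p = 0.369), and *Zfp36l1*, an RNA-binding protein and the most abundant, was at 16.4 ± 8.18 and 25.5 ± 9.53 CPM. Of 14 genes that mark β-cells, 9 had a log2 fold change above 0 and 5 under 0, with a median of 0.06. An unadjusted p under 0.05 was reached by 2 with a higher value (6.18% of all genes) and 1 with a lower value (10.3% of all genes in either direction). The genotypes did not overlap for 1 gene with higher values (8.02% of all genes) and 1 with lower values, for which the share of all genes is not given here. *Mafa*, a transcription factor of mature β-cells, had the lowest p (318 ± 5.01 against 473 ± 24.5 CPM, log2 0.57, SE 0.0880, adjusted p = 0.217), with genotypes that did not overlap.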

How the data were processed

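The data are 6 RNA-seq libraries of mouse islets, 3 per genotype. The authors deposited raw counts per gene and counts per exon as whole numbers, made after alignment with HISAT per the labels, and the version, how reads were assigned and whether strand was used are not given in the sources used here. The authors also deposited their own comparison of the genotypes (means, log2 fold changes, p-values and q-values), which was not used. All columns of counts were mapped to samples by their names.

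The genotypes were compared with edgeR 4.0.16 under R 4.3.3 (filterByExpr with a minimum count of 10 and a minimum total of 15, TMM, glmQLFit and glmQLFTest with sex and genotype, 3 residual degrees of freedom), with Benjamini-Hochberg adjustment over all 14619 genes tested and a threshold of 0.05. CPM values are scaled by TMM. Permutation tests were exact and two-sided, on log2 of CPM plus 0.01. Acinar and stromal scores are the log2 of summed CPM of marker lists. Levels per kb used the union of GENCODE vM21 exons. The test was run on simulated data first. Named genes are the 10 members, their counterparts and, of each list, the most abundant gene and that with the lowest p, some of which are not reported here. The members and lists were chosen with earlier results of these data known. Same-numbered libraries of both genotypes deviated together (r of 0.346 to 0.419 across genes, against at most 0.063 for other pairs), so the females and the same-numbered males were taken as pairs, and what the numbers mark is not stated. None of the 15 pairs of libraries differed by as little as counting noise (chi-square per gene of 15.9 or more). Alternatives were other covariates (none, the replicate block, each score), males alone, DESeq2 1.42.0, other scalings, other filters, exon counts summed per gene and each library left out, and edgeR's legacy dispersion estimates, added after seeing the data.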

Additional observations from a re-analysis of the deposited data

How the results depend on the processing

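Over 20 alternatives, 191 of 199 values of the members kept their direction with an adjusted p above the threshold, 2 kept it with no adjusted p (*Slc16a1* and *Pdgfra* in DESeq2), and 0 were called. These alternatives are not independent, and leaving out either female library repeats the fit of males alone for the genotype term. *Pdgfra* left the test where at least 10 counts were required in every library. The log2 fold change of *Slc16a1* was -0.06 and that of *Ldha* -0.20 with the fibroblast and stellate score, and that of *Slc16a1* was -0.02 in males alone. Leaving out each library in turn gave 0.79 at most and -0.02 at least for *Slc16a1*, and -0.32 to 0.09 for *Rest*. The cause was not tested.

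All genes called numbered 23 with the replicate block, 177 with DESeq2 and 4 with exon counts summed per gene, against 0. Genes with an unadjusted p under 0.05 numbered 2348 with the replicate block and 605 with the stromal score, and 863 to 2176 with a library left out, against 1511. Members with such a p numbered 5 with the block and 0 with the stromal score or in males alone, and 0 to 6 with a library left out, against 2. Members whose genotypes did not overlap numbered 2 in males alone (21.4% of all genes) or without a filter (6.94%), 3 with summed exon counts (7.68%) and 1 to 8 with a library left out (10.9% to 17.7%), against 1 (8.02%). Library size alone moved the median of all genes to -0.087. *Pdgfra* had 4 to 56 counts in a library, and the SE of its log2 fold change was 0.862, or 0.509 without FXR+/+ male 1.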

Other observations

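For cell types not described above, no gene passed the adjusted test. Of 9 macrophage genes, 4 had an unadjusted p under 0.05 with a higher value in FXR-/- islets, as did 6.18% of all genes, and *C1qc*, a complement component, was at 12.9 ± 1.86 against 17.6 ± 1.92 CPM. Of 7 ductal genes tested, 3 had such a p with a higher value, and *Spp1*, osteopontin, was at 17 ± 5.83 against 36.0 ± 3.65 CPM. Of 4 B cell genes 2 were tested and both had a log2 fold change under 0, with *Cd79a*, part of the B cell receptor, at 24.9 ± 4.73 against 17.1 ± 5.43 CPM (log2 -0.58, edgeR adjusted p = 0.430). Of 4 adipocyte genes 3 were in the count table, and none of these had enough counts to be tested. All 5 Schwann and glial genes had a log2 fold change above 0 (51.6% of all genes), with a median of 0.68. Of these, 2 had an unadjusted p under 0.05 with a higher value (6.18% of all genes) and 2 did not overlap (8.02% of all genes). Their sum was 15.3, 16.6 and 11.1 CPM in FXR+/+ female 1, male 1 and male 2 and 19.6, 17.6 and 18.4 CPM in the FXR-/- libraries. The alpha cell and delta cell genes had medians of 0.14 and 0.13, with 0 genes at an unadjusted p under 0.05. Of 10 clock genes in the phase opposite to *Arntl*, all had a log2 fold change under 0 (median -0.93, 7 with an unadjusted p under 0.05, as had 10.3% of all genes in either direction), and 5 in the phase of *Arntl* had a median of 2.29. Their part in the members' values was not tested.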
